A study of Mus musculus with 12 samples.

Results

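Collagen chain genes are the genes whose symbol has the form Col, a type number, the letter a and a chain number. The rule found 44 of them among the 78298 genes of the deposited tables: 11 fibrillar genes, 6 of type IV in basement membranes, 6 of type VI, 9 FACIT genes (fibril-associated collagens with interrupted triple helices) and 12 others. Poly(A)-selected RNA came from C2C12, an established mouse myoblast line, either wild type (WT, 6 libraries) or as a line with the genetically encoded calcium indicator RGECO (6 libraries). Cells of both lines, grown as myoblasts with 10% fetal bovine serum, were cultured on hydrogel made of methacrylated gelatin and harvested for RNA after 14 days of differentiation, in medium with 10% inactivated horse serum, 50 ng/ml IGF-1 and 1 mg/ml aminocaproic acid. RGECO replicate 4 held 825 counts in all and 2 of a collagen gene, both of Col12a1, and is left out below, so the comparison has 6 WT and 5 RGECO libraries. The labels name no promoter for the indicator and do not say whether the RGECO line is 1 clone or whether replicates were separate cultures, and the spread that p-values measure is the one between these samples, which may be technical.

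Collagens are secreted proteins built from chains that wind around each other in a triple helix. Fibrillar collagens give tissues their tensile strength, type IV forms the sheet of the basement membrane around each muscle fibre, type VI links that sheet to the surrounding matrix, and FACIT collagens coat fibrils. Many collagens need chains from different genes in a fixed proportion, so the balance between chains is of interest as well as their amount. The hydrogel itself is made from gelatin, which is denatured collagen protein, whereas the values here are of RNA made by the cells.

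The 11 libraries held 5881622 to 11926220 counts. RGECO replicate 5 was the shallowest. Mitochondrially encoded genes took 0.204% to 1.68% of counts in WT and 0.298% to 1.33% in RGECO, and Malat1, a nuclear RNA, took 0.156% to 0.898% and 0.180% to 0.645%. All 10 muscle markers were measured in both lines, with summed levels of 20497 to 28755 counts per 1000000 (CPM) in WT and 25304 to 32422 CPM in RGECO. By the test described below, Myh3, an embryonic myosin, was higher in RGECO (log2 difference 0.54, edgeR adjusted p = 0.0202) and Actn2, of the Z-disc, was lower (-0.66, adjusted p = 0.0128), while the other 8 did not pass. Both calls were lost with all 12 libraries (edgeR adjusted p = 0.962 and 0.386). That fit includes near-empty RGECO replicate 4, so it cannot decide whether a call is stable. The call of Myh3 was also lost without RGECO replicate 3 (edgeR adjusted p = 0.0575). Of the 5 endothelial and the 5 Schwann cell and neuron markers none was abundant enough to be tested, and of the 5 blood and immune markers 1 was tested, Cd68, which averaged 20.4 ± 6.40 and 20.4 ± 7.57 CPM (SD over 6 WT and 5 RGECO libraries). That list summed to 12.6 to 29.3 CPM in WT and 14.9 to 33.6 CPM in RGECO, with Adgre1 and Hbb-bs at 0 and Ptprc at 1 count in all.

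Collagen RNA was less abundant in the RGECO libraries, and the chains differed in how far they fell. The members summed to 2160, 2317, 3556, 2586, 2935 and 2831 TPM (transcripts per 1000000, a scale corrected for transcript length) in WT replicates 1 to 6, and to 1734, 1527, 1705, 1999 and 1256 TPM in RGECO replicates 1, 2, 3, 5 and 6. Every WT sum lay above every RGECO sum, with means of 2731 ± 500.1 (SD, n = 6) and 1644 ± 275 (SD, n = 5). On estimated counts, which are not corrected for length, members took 0.897% to 1.24% of a WT library and 0.448% to 0.675% of an RGECO library. In bulk RNA, fewer collagen-producing cells and less collagen RNA per cell cannot be told apart.

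**Figure D1:**
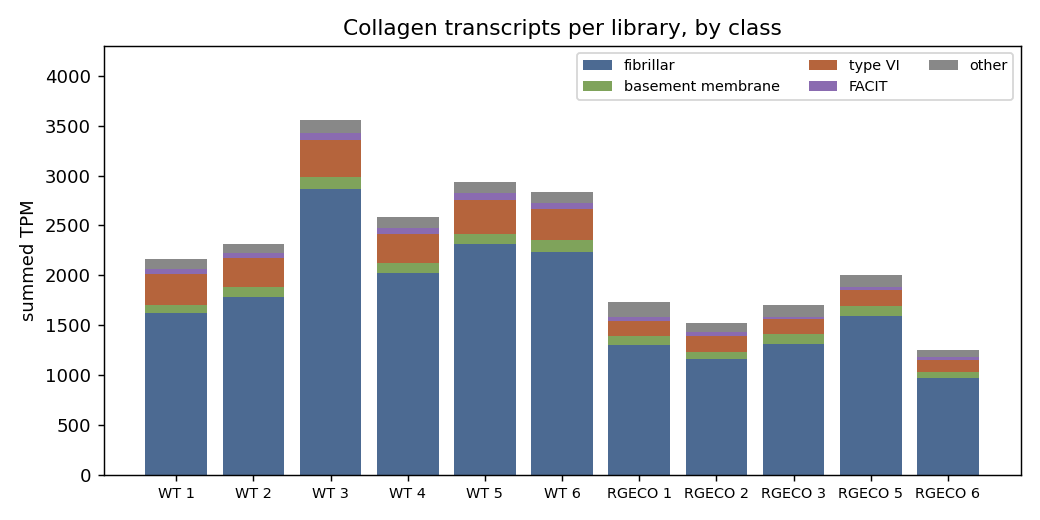
Summed TPM of the collagen chain genes in each of the 11 libraries, stacked by class. The 6 WT bars run from 2160 to 3556 TPM and the 5 RGECO bars from 1256 to 1999 TPM, with the fibrillar class as the tallest part of each.

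The make-up of collagen RNA is given here as shares of the summed TPM, without a test. Fibrillar genes made up 78.0% ± 1.95 (SD, n = 6) of collagen TPM in WT and 77.0% ± 1.72 (SD, n = 5) in RGECO, with overlapping ranges. Type VI made up 10.5% to 14.6% in WT and 8.02% to 10.3% in RGECO. Type IV made up 3.38% to 4.45% in WT and 4.83% to 5.79% in RGECO, while its summed TPM overlapped between the lines. The other class took 3.57% to 4.43% in WT and 5.81% to 8.52% in RGECO, again with overlapping sums. Within the fibrillar class the share of Col1a1 was 15.2% ± 1.48 (SD, n = 6) over WT and 6.85% ± 1.64 (SD, n = 5) over RGECO libraries, whereas Col1a2 and Col3a1 kept overlapping shares.

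Few chains supplied most of the RNA. Over the 11 libraries 14 members averaged at least 10 TPM and together held 98.6% of collagen TPM. Col3a1 and Col1a2 ranked highest in both lines. Col1a1 had rank 3 in WT and rank 4 in RGECO, behind Col5a1. Col6a1 went from rank 5 to rank 8, Col6a2 from 7 to 10 and Col12a1 from 11 to 14, while Col18a1 went from 9 to 5. Ranks follow group means of TPM, and neighbours such as Col5a2 and Col6a2 in WT, with means of 88.6 ± 13.4 and 80.4 ± 10.5 TPM (SD, n = 6), lay within their spread.

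Of the 44 members, 30 passed the filter on low counts and were tested by the quasi-likelihood method of edgeR. Their p-values were adjusted over all 13318 tested genes (Benjamini-Hochberg), and the threshold was 0.05. At that threshold 10 members were lower and 1 was higher in RGECO. Over all genes tested 4.93% were lower and 3.42% higher, or 8.35% in either direction. Of the 10, 6 fell by more than 2-fold, where 2.11% of all genes did so. The median log2 fold change of the tested members was -0.61, against -0.01 over all genes, and 27 of the 30 were below 0 on counts. On log2(TPM + 1) Col11a2, Col16a1, Col18a1 and Col26a1, none of them called, lay above 0 instead. Groups did not overlap in CPM for 10 members on the lower side, where 4.50% of all genes had this pattern, and for 1 on the higher side, where 3.47% had it. Low members that passed the filter through WT alone had to be lower in RGECO, so these counts describe the tested members and not the family.

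**Figure D2:**
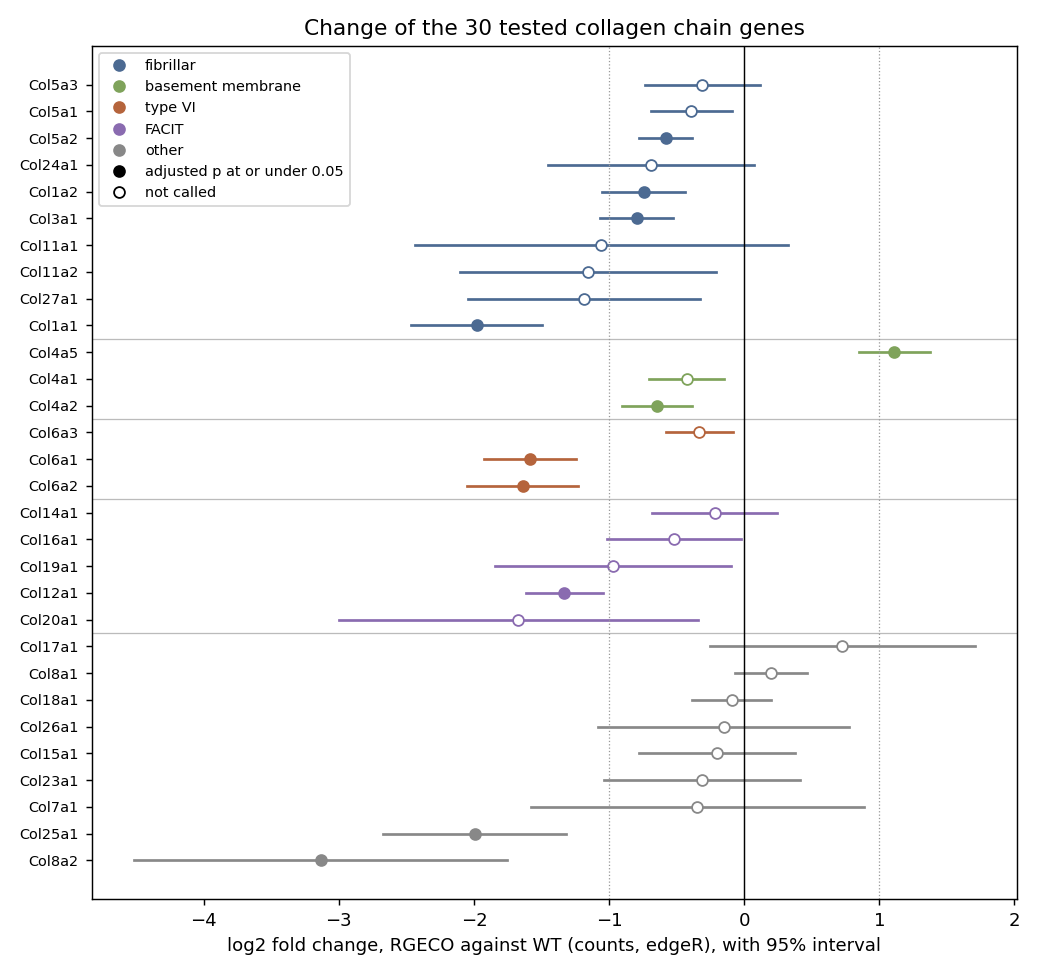
Log2 fold change of RGECO against WT for the 30 tested members, grouped by class, with 95% intervals. Filled points passed adjusted p 0.05. Of the filled points, Col4a5 at 1.11 lies to the right of 0 and the other 10 to the left.

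The 14 members that were too low to test were Col2a1, Col4a3, Col4a4, Col4a6, Col6a4, Col6a5, Col6a6, Col9a1, Col9a2, Col9a3, Col10a1, Col13a1, Col22a1 and Col28a1. They held 0 to 61 counts each over the 11 libraries, and Col4a3, Col6a5, Col6a6, Col9a1 and Col9a2 held none, which allows up to 3 counts each. Col2a1, the main chain of cartilage collagen, had 24 counts in WT and 0 in RGECO.

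Sequence upstream of 5 members is given as examples. These are Col3a1, the most abundant, and Col6a1 and Col6a2, neighbours that fell together. Col6a3, their partner chain from another chromosome, was not called, and Col4a5 is the member that rose. No such sequence was at hand for Col1a1, Col5a2 and Col12a1, which were also called lower. The sequences are RefSeq's on GRCm38.p6, read 5′ to 3′ on the strand of the gene, and stop before the first annotated exon, which for Col6a1 and Col4a5 is 124 and 34 bases short of RefSeq's start. Capitals mark a match on either strand. The motifs searched were the TATA box, with the letters TATAAA. The CCAAT box has the letters CCAAT, and the GC box is the run of letters GGGCGG.
Col3a1, chr1:45311288-45311537, plus strand: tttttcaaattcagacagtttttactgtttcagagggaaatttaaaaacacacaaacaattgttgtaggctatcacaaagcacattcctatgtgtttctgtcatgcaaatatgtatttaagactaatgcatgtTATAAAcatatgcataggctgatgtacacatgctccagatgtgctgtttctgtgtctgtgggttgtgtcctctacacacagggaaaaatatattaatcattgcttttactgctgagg
Col6a1, chr10:76726169-76726294, minus strand: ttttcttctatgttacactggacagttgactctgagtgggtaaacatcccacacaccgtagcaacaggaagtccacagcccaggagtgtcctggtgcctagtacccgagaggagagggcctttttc
Col6a2, chr10:76623631-76623880, minus strand: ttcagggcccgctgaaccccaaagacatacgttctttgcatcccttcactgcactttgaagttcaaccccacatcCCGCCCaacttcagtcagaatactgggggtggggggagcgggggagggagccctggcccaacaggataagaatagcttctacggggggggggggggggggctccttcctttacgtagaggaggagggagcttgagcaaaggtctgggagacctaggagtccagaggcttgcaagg
Col6a3, chr1:90843972-90844221, minus strand: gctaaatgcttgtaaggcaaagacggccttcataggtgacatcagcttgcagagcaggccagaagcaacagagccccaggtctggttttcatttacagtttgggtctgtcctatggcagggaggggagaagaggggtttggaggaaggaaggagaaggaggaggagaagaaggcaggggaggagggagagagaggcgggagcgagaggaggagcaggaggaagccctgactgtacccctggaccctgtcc
Col4a5, chrX:141475169-141475384, plus strand: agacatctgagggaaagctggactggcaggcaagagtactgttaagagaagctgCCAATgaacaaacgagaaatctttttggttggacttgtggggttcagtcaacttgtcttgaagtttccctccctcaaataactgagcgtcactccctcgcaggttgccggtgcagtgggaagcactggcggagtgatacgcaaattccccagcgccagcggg

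In the 250 bases before each RefSeq start, 35 members had 38 windows. TATAAA was in 5 of these windows, against 12.4% of all 32851 windows of that length. CCAAT was in 13, against 33.8%, and GGGCGG in 22, against 32.7%. The type VI neighbours Col6a1 and Col6a2 did not share these motifs: Col6a2 held a GC box and the Col6a1 window held none. The window of Col6a3, which was not called, held none either. Of the other members called lower, Col1a2, Col4a2, Col8a2 and Col25a1 held a GC box and Col3a1 did not. Col4a5, which rose, also held a GC box in its 250 bases, though not within its printed sequence. Among members that were not called, Col5a1, Col5a3, Col8a1, Col16a1 and Col18a1 held one too, and Col4a1 did not. The GC box was thus found whether members fell, rose or were not called. Col1a1, Col5a2 and Col12a1 had no window. A match describes letters in the window and not a site in use.

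Among fibrillar genes 4 of 10 tested members fell, 0 rose and 6 did not pass, and all 10 estimates were below 0 on counts, with Col11a2 at 0.02 on log2(TPM + 1). Col1a1 (ENSMUSG00000001506, chromosome 11: 94936224 to 94953042, GRCm38) encodes the α1 chain of type I collagen, which enters each type I molecule in a pair. In WT it ran from 330 to 604 TPM with a median of 385, and RGECO replicates 1, 2, 3, 5 and 6 read 116, 80.2, 163, 138 and 73.7 TPM. Its highest RGECO library was below the lowest WT library. The log2 fold change on counts was -1.98 ± 0.23 (SE; edgeR adjusted p = 7.18e-05), or 3.94-fold lower with a 95% interval of 2.82 to 5.51.

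Col1a2 (ENSMUSG00000029661, chromosome 6: 4504814 to 4541544, GRCm38) encodes the α2 chain of the same molecule. It ran from 469 to 826 TPM with a median of 503 in WT, and read 460, 304, 365, 566 and 211 TPM in the RGECO libraries in the same order. On TPM the lines overlapped, since RGECO replicate 5 lay inside the WT range, whereas in CPM they did not, with 1579 to 2331 in WT and 854 to 1433 in RGECO. The log2 fold change on counts was -0.74 ± 0.14 (SE; edgeR adjusted p = 0.00418), and on log2(TPM + 1) the call was lost at -0.61 (adjusted p = 0.137 by limma).

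The chains of type I collagen did not fall by the same amount. In TPM, the ratio of Col1a1 to Col1a2 was 0.703 to 0.774 in WT, with a mean of 0.746 ± 0.0256 (SD, n = 6). It was 0.253, 0.264, 0.447, 0.243 and 0.350 in the RGECO libraries, with a mean of 0.311 ± 0.0869 (SD, n = 5). The WT libraries held a narrow ratio and no RGECO library reached it. On counts the log2 ratio differed by -1.28 between the lines (two-sided exact permutation p = 0.00433, the smallest that 462 assignments can give, adjusted p = 0.0115 over 8 chain pairs).

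Col3a1 (ENSMUSG00000026043, chromosome 1: 45311538 to 45349706, GRCm38) forms type III collagen, a homotrimer that often lies in fibrils with type I. It ran from 538 to 1008 TPM with a median of 883 in WT and read 435, 509, 465, 600 and 444 TPM in RGECO. RGECO replicate 5 reached into the WT range on TPM but not in CPM. The log2 fold change was -0.80 ± 0.13 (SE; edgeR adjusted p = 0.00106). Its count ratio to Col1a2 was not shown to differ, at -0.06 on the log2 scale (exact permutation p = 0.576, adjusted p = 0.576). Its ratio to Col1a1, which fell further at -1.98, was not tested.

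Type V collagen sits inside type I fibrils and limits their width. Col5a2 fell, from 69.7 to 104 TPM with a median of 93.0 in WT to 61.5, 61.0, 66.9, 64.2 and 58.3 TPM in RGECO. Its RGECO libraries lay close together and below all WT libraries. Its fitted log2 difference was -0.58 ± 0.09 (SE; edgeR adjusted p = 9.49e-04). Col5a1, its partner and the fourth most abundant member in WT, ran from 195 to 303 TPM with a median of 238 in WT and read 210, 186, 231, 196 and 172 TPM in RGECO. The ranges overlapped, and the log2 fold change of -0.39 ± 0.14 (SE; edgeR adjusted p = 0.105) did not pass. Without RGECO replicate 5 it passed at -0.49 (adjusted p = 0.0490). The ratio of Col5a1 to Col5a2 differed by 0.19 on the log2 scale and did not pass (exact permutation adjusted p = 0.173).

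The remaining fibrillar members were low or little changed. Col5a3, a further type V chain, averaged 21.1 ± 4.43 TPM (SD, n = 6) over WT and 18.3 ± 4.81 TPM (SD, n = 5) over RGECO libraries, with a log2 difference of -0.31 with a 95% interval of -0.73 to 0.12. Col11a1, Col11a2, Col24a1 and Col27a1 averaged under 1 TPM in both lines, and their log2 fold changes of -1.18 to -0.69 did not pass. Their intervals were wide, that of Col11a1 running from -2.44 to 0.32 and that of Col24a1 from -1.45 to 0.07. Those of Col11a2 and Col27a1 lay below 0, at -2.10 to -0.21 and -2.04 to -0.32. For such low members with more counts in WT, the filter favours a negative estimate.

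**Figure D3:**
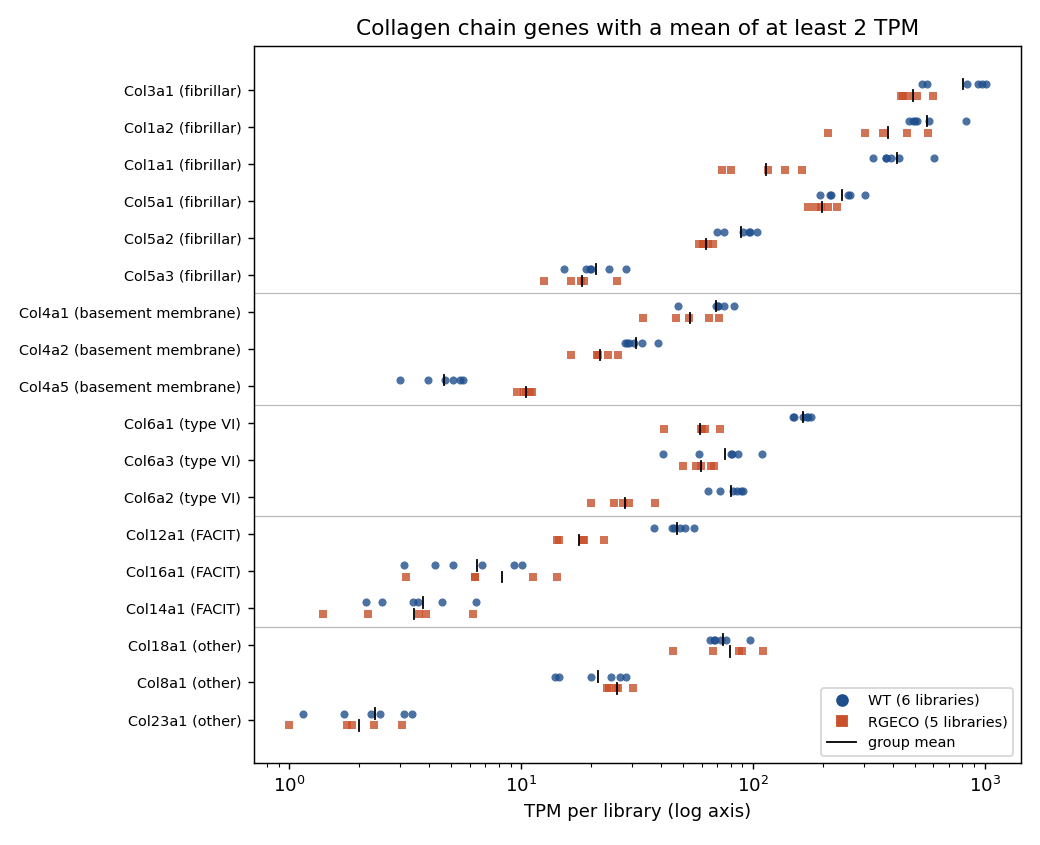
TPM of each library (log axis) for the 18 members with a mean of at least 2 TPM, by class, with circles for WT, squares for RGECO and lines for group means. Col1a1, Col6a1, Col6a2 and Col12a1 show a gap between the lines with WT to the right, Col4a5 shows one with RGECO to the right, and Col18a1 and Col6a3 overlap.

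Type VI forms beaded filaments around muscle fibres, and its classical molecule joins 1 chain each of Col6a1, Col6a2 and Col6a3. Of the 3 tested genes 2 fell. Col6a1 (ENSMUSG00000001119, chromosome 10: 76708792 to 76726168, GRCm38) ran from 149 to 177 TPM with a median of 167 in WT and read 60.2, 61.9, 59.8, 72.3 and 41.2 TPM in RGECO. Col6a2 (ENSMUSG00000020241, chromosome 10: 76595762 to 76623630, GRCm38) ran from 63.7 to 90.8 TPM with a median of 83.4 in WT and read 25.2, 27.6, 29.1, 37.8 and 19.9 TPM in RGECO. In both genes all RGECO libraries were below all WT libraries, and within RGECO replicate 5 was the highest and replicate 6 the lowest. The log2 fold changes were -1.59 ± 0.16 (SE; edgeR adjusted p = 2.13e-05) and -1.64 ± 0.19 (SE; edgeR adjusted p = 8.08e-05).

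Col6a3 (ENSMUSG00000048126, chromosome 1: 90765923 to 90843971, GRCm38), the large chain, did not pass. It ran from 41.1 to 109 TPM with a median of 80.8 in WT and read 65.8, 68.1, 59.5, 49.8 and 56.6 TPM in RGECO, inside the WT range. In log2 terms it differed by -0.33 with a 95% interval of -0.58 to -0.09 (adjusted p = 0.0940 by edgeR). In TPM the ratio of Col6a3 to Col6a1 was 0.467 ± 0.147 (SD, n = 6) over WT and 1.05 ± 0.246 (SD, n = 5) over RGECO libraries, without overlap. On counts the log2 ratio differed by 1.27 (exact permutation p = 0.00433, adjusted p = 0.0115). The ratio of Col6a1 to Col6a2 was 2.05 ± 0.183 (SD, n = 6) and 2.13 ± 0.184 (SD, n = 5) in TPM, and the log2 difference of 0.05 on counts did not pass (exact permutation p = 0.519, adjusted p = 0.576). Col6a1 and Col6a2 lie on the same strand 85161 bases apart with 0 protein-coding genes between them, and Col6a3 lies on another chromosome.

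**Figure D4:**
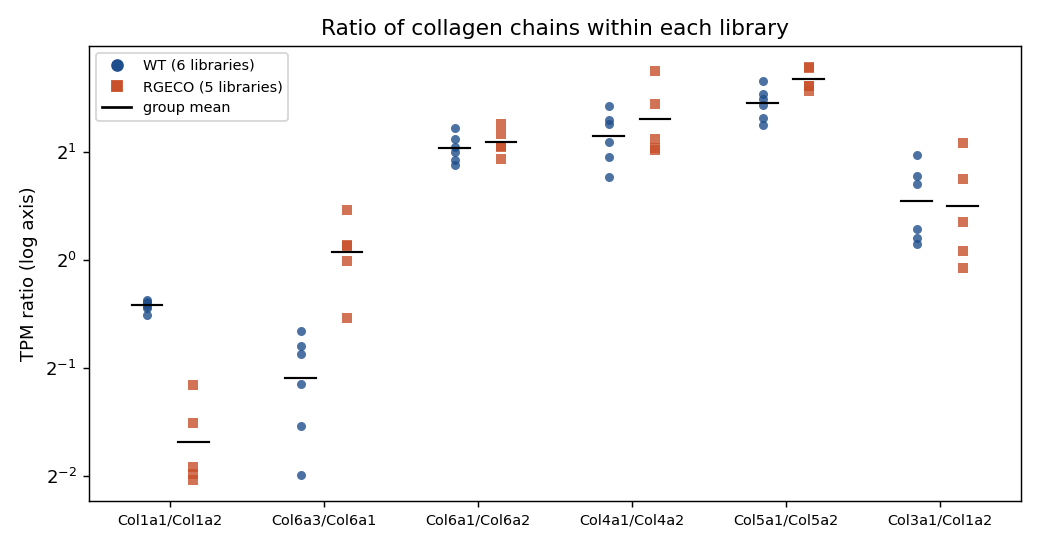
TPM ratio of 6 pairs of collagen chains in each library (log axis), with circles for WT, squares for RGECO and lines for group means. The Col1a1 to Col1a2 ratio is lower and the Col6a3 to Col6a1 ratio higher in every RGECO library than in any WT library, while the other pairs overlap on this scale.

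Type IV collagen is the network of the basement membrane. Of its 6 genes, 3 were tested, with 1 lower, 1 higher and 1 that did not pass. Col4a1 and Col4a2, which make up the common type IV molecule, lie head to head on chromosome 8 with annotated starts that overlap by 22 bases. Col4a1 ran from 47.6 to 82.8 TPM with a median of 70.5 in WT and read 52.8, 46.5, 64.5, 71.4 and 33.4 TPM in RGECO. This gave a log2 fold change of -0.43 ± 0.13 (SE; edgeR adjusted p = 0.0550). The ranges overlapped, and without RGECO replicate 5 it passed at -0.50 (adjusted p = 0.0327). Col4a2 ran from 28.0 to 38.8 TPM with a median of 30.0 in WT and read 26.2, 21.4, 23.7, 21.3 and 16.3 TPM in RGECO. All of these lay below the lowest WT value, and the log2 fold change was -0.64 ± 0.12 (SE; edgeR adjusted p = 0.00383). On log2(TPM + 1) the call was lost (-0.52, adjusted p = 0.0585 by limma). The count ratio of Col4a1 to Col4a2 differed by 0.21 on the log2 scale (exact permutation adjusted p = 0.0208), but by 0.14 on TPM (exact permutation adjusted p = 0.561).

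Col4a5 (ENSMUSG00000031274, chromosome X: 141475385 to 141689234, GRCm38) was the 1 member that rose. It encodes a minor type IV chain found in the basement membranes of kidney and other tissues. It ran from 3.01 to 5.64 TPM with a median of 4.90 in WT and read 11.2, 9.61, 10.5, 10.3 and 10.9 TPM in RGECO. The RGECO libraries were close together and all above WT. On counts the log2 difference was 1.11 ± 0.12 (SE; edgeR adjusted p = 5.78e-05), with a 95% interval of 0.85 to 1.38, whereas the intervals of Col4a1 and Col4a2 lay below 0. Its head-to-head neighbour Col4a6, 1308 bases away, had 1 to 13 counts per WT library and 0 to 6 per RGECO library. The count ratio of Col4a5 to Col4a6 differed by 2.28 on the log2 scale (exact permutation adjusted p = 0.0208), a value that rests on those few counts of Col4a6 and was 1.55 with 5 rather than 0.5 added to each count.

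Among FACIT genes 1 of 5 tested members fell, 0 rose and 4 did not pass. Col12a1 (ENSMUSG00000032332, chromosome 9: 79598991 to 79718831, GRCm38) coats type I fibrils and is found in tendon and muscle connective tissue. It ran from 37.3 to 55.7 TPM with a median of 47.1 in WT and read 18.5, 22.8, 18.7, 14.5 and 14.3 TPM in RGECO. No RGECO library reached the WT range. The log2 fold change was -1.33 ± 0.13 (SE; edgeR adjusted p = 2.13e-05), or 2.51-fold lower with a 95% interval of 2.06 to 3.06.

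Col16a1 and Col14a1, both fibril-associated, did not pass. Col16a1 ran from 3.12 to 10.1 TPM with a median of 5.93 in WT and read 14.3, 6.33, 3.18, 11.3 and 6.34 TPM in RGECO. Its direction depended on the unit, with a log2 fold change of -0.52 on counts (adjusted p = 0.202 by edgeR) and 0.27 on log2(TPM + 1) (adjusted p = 0.722 by limma). Col14a1 ran from 2.14 to 6.40 TPM with a median of 3.51 in WT and read 6.17, 3.89, 3.61, 1.40 and 2.19 TPM in RGECO. This gave a log2 fold change of -0.22 (adjusted p = 0.619). Col19a1 and Col20a1 averaged under 2 TPM and had log2 fold changes of -0.97 and -1.67 (adjusted p = 0.173 and 0.121 by edgeR). Without RGECO replicate 6, Col19a1 passed at -1.45 (adjusted p = 0.0352), as did the fibrillar gene Col27a1 at -1.58 (adjusted p = 0.0330).

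In the other class 2 of 9 tested members fell, 0 rose and 7 did not pass. Col18a1, a basement membrane proteoglycan core whose C-terminal fragment is endostatin, was the most abundant. It ran from 65.1 to 97.1 TPM with a median of 70.4 in WT and read 111, 67.4, 89.4, 87.1 and 45.2 TPM in RGECO, so that RGECO spanned the whole WT range. Its log2 fold change was -0.09, with a 95% interval of -0.39 to 0.20 that lies inside 2-fold, and 0.05 on log2(TPM + 1). Col8a1, a short-chain collagen that forms hexagonal networks, ran from 14.0 to 28.4 TPM with a median of 22.2 in WT and read 30.3, 26.1, 23.5, 24.0 and 25.7 TPM in RGECO. Its log2 fold change of 0.20 had a 95% interval of -0.07 to 0.47. Col23a1, a transmembrane collagen, averaged 2.34 ± 0.840 TPM (SD, n = 6) over WT and 2.00 ± 0.756 TPM (SD, n = 5) over RGECO libraries, with a log2 difference of -0.31 (adjusted p = 0.659 by edgeR). It passed without RGECO replicate 5, the highest library in CPM, at -0.86 (adjusted p = 0.0260).

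The members of this class that fell were expressed at low levels. Col8a2, the partner chain of Col8a1, had 18, 16, 14, 9, 29 and 24 counts in WT replicates 1 to 6 and 1, 5, 3, 0 and 0 counts in the RGECO libraries. Counts were under 3 in 3 of the 5 RGECO libraries, where the floor of 3 counts is 0.251 to 0.525 CPM. Its fitted log2 difference was -3.13 ± 0.65 (SE; edgeR adjusted p = 0.00670). The Col8a2 call was lost on log2(TPM + 1) (adjusted p = 0.0574), and Col8a2 missed the count filter when any WT library other than replicate 4 was left out. The count ratio of Col8a1 to Col8a2 differed by 3.62 on the log2 scale (exact permutation adjusted p = 0.0115), with 0.5 added to each count. It was 1.82 with 5 added, so its size depends on that choice, and Col8a2 passed the count filter through WT. Col25a1, a transmembrane collagen that muscle needs for motor innervation, had 31 to 58 counts per library in WT and 6, 21, 12, 6 and 12 in RGECO, and its log2 fold change was -1.99 ± 0.32 (SE; edgeR adjusted p = 0.00101). The groups did not overlap in CPM, but Col25a1 too passed the count filter through WT, which favours a lower value in RGECO.

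Among the members that did not pass, 17 of 19 had estimates below 0, against 51.5% of all genes tested. Some of them, such as Col11a1, Col11a2 and Col20a1, are low members with more counts in WT, for which the filter favours a negative estimate. Col7a1, Col15a1, Col17a1 and Col26a1, the other tested genes of the last class, averaged under 3 TPM in both lines and had log2 fold changes of -0.35, -0.20, 0.73 and -0.15. For 10 of the 30 tested members the 95% interval lay inside 2-fold in both directions, among them Col5a1, Col6a3, Col4a1 and Col18a1. Such narrow intervals were found for 74.0% of all tested genes.

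The number of members called depended on the libraries and covariates used. With all 12 libraries, near-empty RGECO replicate 4 included, 5 members were lower, against 4.49% of all genes. Since replicate 4 held 825 counts, calls lost or gained in that fit, here and below, cannot decide whether a call is stable. Col1a1, Col1a2, Col3a1, Col5a2 and Col4a2 lost their calls there (adjusted p = 0.0511, 0.642, 0.657, 0.451 and 0.102 by edgeR), Col8a2 was not tested, and Col20a1 gained a call (adjusted p = 0.0289). With the share of mitochondrially encoded counts in the model 17 were lower and 2 higher, against 11.4% and 12.1% of all genes. With the Malat1 share as a covariate 16 were lower and 1 higher, against 10.3% and 10.5%. With DESeq2 13 were lower and 1 higher, against 6.92% and 5.65%, and with the replicate number as a block 10 and 1, against 3.58% and 2.25%. Col6a1, Col6a2, Col12a1 and Col4a5 passed in the same direction under all 21 alternatives.

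Some genes that make, process and bind collagen were called, in both directions, and most were not. The counts below stand beside 4.93% lower and 3.42% higher over all genes tested. Of 17 tested genes for folding and modification 3 fell and 1 rose. These were P3h3, a prolyl 3-hydroxylase family member, at -1.22, P4ha3, a prolyl 4-hydroxylase subunit, at -1.09, Plod1, a lysyl hydroxylase, at -0.64 and P3h2, a prolyl 3-hydroxylase, at 0.76 on the log2 scale (adjusted p = 0.00332, 0.00220, 0.00687 and 0.0128 by edgeR). Serpinh1, the collagen chaperone, with mean levels of 917 ± 216 and 715 ± 113 CPM (SD; WT, RGECO), did not pass (adjusted p = 0.190). Of 8 genes for export 1 fell, the coat subunit Sec24d at -0.51 (adjusted p = 0.00821), and 0 rose.

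Of 10 tested genes for procollagen processing and crosslinking 2 fell and 2 rose. Adamts2, which removes the N-propeptide, fell, with means of 77.8 ± 13.0 in 6 WT and 37.4 ± 10.7 CPM (SD) in 5 RGECO libraries and a log2 difference of -1.06 ± 0.18 (SE; edgeR adjusted p = 0.00149). Loxl2, a lysyl oxidase, rose, with means of 87.7 ± 11.4 and 159 ± 18.8 CPM (SD) and a log2 difference of 0.86 ± 0.11 (SE; edgeR adjusted p = 2.44e-04). Pcolce2, an enhancer of C-propeptide removal, rose with a log2 difference of 0.68 (adjusted p = 0.00439). Lox, the main lysyl oxidase, fell with a log2 difference of -0.45 (adjusted p = 0.0455), a call that was lost without any 1 of 8 libraries (WT replicates 1, 4, 5 and 6 and RGECO replicates 1, 2, 3 and 5; adjusted p = 0.0584 to 0.107). On log2(TPM + 1) the calls of Sec24d, Adamts2 and Lox were lost (adjusted p = 0.0878, 0.107 and 0.362 by limma), and with all 12 libraries those of Plod1, Sec24d and Lox were lost (adjusted p = 0.196, 0.236 and 0.714).

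Of 4 tested genes for breakdown 2 fell: the gelatinase Mmp2 at -1.12 and the membrane collagenase Mmp14 at -0.52 on the log2 scale (adjusted p = 2.83e-04 and 0.0111 by edgeR; 0.227 and 0.280 with all 12 libraries). On log2(TPM + 1) the Mmp14 call was lost (adjusted p = 0.0905 by limma). Of 9 tested receptors 2 fell and 2 rose. The integrin subunit Itga11, which binds fibrillar collagen, fell (39.6 ± 8.54 CPM in WT against 8.78 ± 2.42 CPM in RGECO, SD; log2 difference -2.17, edgeR adjusted p = 1.60e-05), while the receptor kinase Ddr2 rose by 0.57 and Antxr2, which binds collagen, by 0.55 as log2 values (adjusted p = 0.0169 and 0.00820). The calls of Ddr2 and Antxr2 were lost with all 12 libraries (adjusted p = 0.594 and 0.102) and on log2(TPM + 1) (adjusted p = 0.121 and 0.283), and that of Ddr2 without RGECO replicate 1 (adjusted p = 0.0526). Itga1, the other receptor called lower, had 10 counts over the 5 RGECO libraries and 1.82 CPM in WT, so it passed the filter through WT and could only come out lower (adjusted p = 0.0162; 0.0509 without RGECO replicate 3, and 0.184 on log2(TPM + 1)).

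Some markers of matrix-forming cells also moved with the line. Of 8 tested fibroblast and fibro-adipogenic markers, of 10 listed, 2 fell and 2 rose, with Pdgfrb at -1.59, Postn at -0.77, Dcn at 0.96 and Ly6a at 0.96 on the log2 scale (adjusted p = 1.03e-05, 0.0283, 0.00193 and 1.50e-04 by edgeR). The list summed to 804 to 1194 CPM in WT and 1182 to 1487 CPM in RGECO. Mean CPM in WT and RGECO was 315 ± 44.9 and 610 ± 79.4 for Ly6a and 180 ± 41.6 and 350 ± 69.0 for Dcn (SD). For Postn it was 240 ± 62.8 and 141 ± 36.7, and for Pdgfrb 88.5 ± 11.1 and 29.4 ± 5.69 (SD). The sum thus hides members that went the other way. Pdgfra, Lum, Pdpn and Dpt did not pass. Thy1 was at 0 in all WT libraries and had 1 count in RGECO. The 5 tendon markers summed to 29.8 to 56.9 CPM in WT and 17.1 to 26.8 CPM in RGECO, with Fmod and Mkx lower and Tnmd and Kera at 0. Fmod and Mkx had 21 and 29 counts over the 5 RGECO libraries. They passed the filter through WT and could only come out lower. Scx, also tested and the most abundant of the list, did not pass (-0.65, edgeR adjusted p = 0.0697). The 5 smooth muscle markers summed to 1383 to 1855 CPM in WT and 964 to 1458 CPM in RGECO, with Tagln and Actg2 lower. Most of that sum was Acta2, at 1168 to 1565 CPM in WT and 847 to 1320 CPM in RGECO. Acta2 did not pass (-0.39, edgeR adjusted p = 0.0669). Myh11 averaged under 1 CPM in both lines and was at 2.80 CPM in RGECO replicate 5. The 6 cartilage and bone markers summed to 98.5 to 117 CPM in WT and 71.2 to 103 CPM in RGECO. Of the 2 tested, Runx2 was lower (-0.53, adjusted p = 0.0107) and Sox9 did not pass, and the Runx2 call was lost with all 12 libraries (adjusted p = 0.0893) and on log2(TPM + 1) (adjusted p = 0.176). Leaving out WT replicate 4 or 5 or RGECO replicate 1, 2 or 5 ended the call of Postn (adjusted p = 0.0553 to 0.0731), leaving out WT 2 or 6 or RGECO 1, 2 or 6 ended that of Mkx (adjusted p = 0.0526 to 0.0757), and leaving out WT 5 or RGECO 3 or 6 ended that of Tagln (adjusted p = 0.0518 to 0.0544). With all 12 libraries the calls of Postn, Dcn, Ly6a and Tagln were lost (adjusted p = 0.0728, 0.165, 0.473 and 0.0887). The part of such cells, of depth or of the Malat1 share in the collagen values was not tested beyond the fits given above.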

How the data were processed

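RNA of 12 libraries of C2C12 cells was read as paired 50-base reads (14 cycles of PCR), per the labels' protocols. Estimated counts for each gene, without normalisation, were deposited by the authors, as was a second table in TPM, which adds up to 1000000 in each library. Tools named per the submitters' processing notes are STAR, Salmon, BWA 0.7.12-r1039 and bedtools 2.25.0. Builds named there are GRCm39, mm10 and hg19. Which tool and build made the tables, and whether strand was used, is not given in the sources used here, so reads of antisense partners cannot be told apart. Gene positions are from GENCODE M21 on GRCm38.

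RGECO replicate 4 was left out on its total of 825 counts (minimum 1000000). Estimated counts were rounded and tested in edgeR 4.0.16 (R 4.3.3) with filterByExpr, TMM scaling and the robust quasi-likelihood F test. TPM was tested with limma 3.58.1 on log2(TPM + 1), and DESeq2 1.42.0 was an alternative. Standard errors and 95% intervals come from the F statistic. Chain ratios used log2 of counts + 0.5 and two-sided exact permutation tests over 8 pairs. The floor of 3 counts was 0.246 to 0.525 CPM per library, covering counting error only. In simulated counts for these 13318 genes, changes were put into a sample of genes with an average log2 CPM above 1. Of these changes, 66% of 2-fold and 97% of 4-fold ones were recovered. In that run 6.32% of calls were false, and with no gene changed there were 0 calls. Recovery was not measured for lower genes such as Col8a2. Member counts departed from whole numbers by at most 0.0130. Replicates were compared in 25 pairs, and since chi-square per gene was at least 7.62, each library was counted separately.

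The members and gene lists were chosen with earlier results of these data known. Named members are those past the threshold and the 3 most abundant of each class. Named pathway genes are up to 4 per list past the threshold whose log2 CPM averaged 3 or more. Serpinh1, Itga1 and members beyond the rule were named after their values were seen.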

Additional observations from a re-analysis of the deposited data

Results flagged for a closer look

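In each line, the CPM of the 30 tested members, the summed TPM and the 8 chain ratios gave 78 groups of 5 or 6 libraries in all. The gap of the most extreme library to its nearest neighbour was set against the range of the group. Chance marks about 1 in 20 such groups, and 2 were marked, both in RGECO (critical value 0.71 for 5 libraries). Col23a1 was highest in RGECO replicate 5 at 14.4 CPM, with the nearest library at 4.80 CPM and a gap of 0.848 of the range. Col25a1 was highest in RGECO replicate 2 at 2.06 CPM, with the nearest at 1.15 CPM and a gap of 0.724 of the range.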

How the results depend on the processing

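Of 624 values of single members under 21 alternatives, 572 kept direction and side of the threshold, 24 gained and 16 lost a call, and 12 changed sign, all of members not called. The sign changes came on TPM, at 0.0173 for Col11a2, 0.266 for Col16a1, 0.0516 for Col18a1 and 0.150 for Col26a1 with log2(TPM + 1), whether or not low genes were kept, and at 0.296, 0.0515 and 0.187 for Col16a1, Col18a1 and Col26a1 with log2(TPM + 0.1). Col26a1 ran from -0.512 without RGECO replicate 3 to 0.0613 without RGECO replicate 1. All 11 called members kept their calls without each library in turn where they could be tested. Members lower, 10, became 5 with all 12 libraries, 4 with log2(TPM + 1) and no filter, 17 and 16 with the mitochondrial and Malat1 share as covariate, and 9 to 13 without each library. Members higher, 1, became 2 with the mitochondrial share and stayed at 1 without each library. Genes lower, 656, became 261 and 257 with log2(TPM + 1) and log2(TPM + 0.1), 118 with log2(TPM + 1) and no filter (695 on counts with no filter), 1519 and 1376 with the covariates, and 455 to 662 without each library. Genes higher, 456, became 237 with all 12 libraries, 753 with DESeq2, 140 with log2(TPM + 1) and no filter (376 on counts with no filter), 1614 and 1395 with the covariates, and 330 to 478 without each library. The cause was not tested. The collagen share differed by -0.109 percentage points of TPM (-0.120 to -0.0921 without each library) and by -0.475 of counts. Col3a1 to Col1a2 was -0.12 to 0.0028 without each library, the highest without WT replicate 6, and Col4a1 to Col4a2 was 0.14 on TPM (exact permutation adjusted p = 0.561). With 5 rather than 0.5 added to counts, Col8a1 to Col8a2 was 1.82 and Col4a5 to Col4a6 was 1.55. Same-number correlations of deviations were -0.21 to 0.46, so replicate numbers did not pair the libraries throughout. For replicates 1, 2, 3 and 5 some library of another number correlated more. For replicate 6 the same-number value of 0.46 was above all others (-0.40 to 0.41). With a replicate block 10 members were lower and 1 higher, and 300 genes were higher. In the paired analysis of chain ratios, which leaves out WT replicate 4, the exact p cannot go below 0.0625, and the log2 ratios were -1.28 for Col1a1 to Col1a2, 0.24 for Col4a1 to Col4a2, 1.31 for Col6a3 to Col6a1, 2.18 for Col4a5 to Col4a6 and 3.84 for Col8a1 to Col8a2. Of 26 pathway and marker genes called, 14 lost the call with all 12 libraries, 12 with log2(TPM + 1) and 18 with log2(TPM + 1) and no filter. Not all of the losses on TPM are named above. Only 4 of the 26 kept the call in every alternative in which they could be tested. Depth limits members with few counts such as Col8a2.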
